A study of Mus musculus with 20 samples.

Results

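Transcripts of 39 genes of the autophagy machinery and its lysosomal regulators were followed through sorted CD4 T cells of the mouse. The genes were chosen by name, from knowledge of the pathway and with earlier results of these data known. They cover the initiation kinases, the lipid kinase complex, the membrane supply, the conjugation enzymes, the LC3 family, the cargo receptors and the regulators of lysosomes. All 39 were found among the 22068 genes of the count table, 37 under their current symbol and 2 under an older one (Tfeb as Tcfeb and Tfe3 as Tcfe3). RNA came from spleen and lymph node cells of C57BL/6 mice aged 8 to 12 weeks that carried a GFP reporter of Foxp3, the transcription factor of regulatory T cells. There were 5 groups of 4 libraries, which the submitters call biological replicates, and each was sorted as TCRb+ CD4+ CD8- cells that lacked CD69 and the surface markers of B, NK and myeloid cells. Naive cells were GFP-negative and CD44-low, and were split into the 15% with the least surface CD5 (CD5lo) and the 15% with the most (CD5hi). Both were either lysed directly (fresh) or cultured for 22 hours in dissociated culture with 10 ng/mL of interleukin 7 (rested), which takes the cells away from self-peptide on other cells. Regulatory T cells (Treg) were the GFP-positive cells, lysed directly and not divided by CD44 or CD5.

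Autophagy encloses cytoplasm, proteins or damaged mitochondria in a double membrane, the autophagosome, which fuses with a lysosome for digestion. The ULK1 kinase complex starts the process when growth signalling through mTORC1 falls, a lipid kinase complex built on VPS34 marks the site, and ubiquitin-like enzymes attach LC3 and GABARAP proteins to the growing membrane, where cargo receptors bind them. The transcription factors TFEB and TFE3 raise lysosomal and autophagy genes through a DNA element with the core CACGTG. In T cells autophagy is known for the upkeep of resting and memory cells and of Treg, and mitophagy receptors for the clearance of mitochondria. Levels of RNA do not measure the flux through the pathway.

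Promoters were examined for short motifs because Tfeb and Tfe3 encode factors that bind one of them. In RefSeq promoters of mouse build GRCm38.p6, running from 250 bases before to 50 after each start, 33 of the 39 genes were matched. The motif GTCACGTG, searched on both strands and holding the shorter CACGTG, stood in the promoters of 4 genes, Atg3, Atg7, Atg14 and Lamp1, and in 2.25% of all 32851 promoters. The 5 windows shown hold 3 of these 4, a hypoxia-regulated mitophagy receptor with CACGTG alone, and the gene with the largest change, whose window has none of the motifs searched. Capitals mark GTCACGTG or its reverse complement, and CACGTG in Bnip3.
Atg3, chr16:45158707-45158789, plus strand: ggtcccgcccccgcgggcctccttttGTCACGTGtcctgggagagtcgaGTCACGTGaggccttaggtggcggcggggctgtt
Atg7, chr6:114670936-114670995, plus strand: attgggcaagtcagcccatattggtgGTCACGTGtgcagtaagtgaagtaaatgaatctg
Lamp1, chr8:13159107-13159160, plus strand: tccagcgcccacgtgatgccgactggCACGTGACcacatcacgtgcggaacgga
Bnip3, chr7:138909582-138909641, minus strand: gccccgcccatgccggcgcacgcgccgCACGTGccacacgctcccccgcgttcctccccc
Gabarapl1, chr6:129532942-129533191, plus strand: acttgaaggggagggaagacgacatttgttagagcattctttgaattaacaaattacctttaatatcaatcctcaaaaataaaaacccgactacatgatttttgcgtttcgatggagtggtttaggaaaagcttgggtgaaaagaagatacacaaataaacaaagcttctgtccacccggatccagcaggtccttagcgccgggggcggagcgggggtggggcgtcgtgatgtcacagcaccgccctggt

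In Atg3 the motif stood at 2 places, from 96 to 66 bases before the start. The Atg7 match began 134 bases before the start, and that of Lamp1, read on the other strand, began 28 bases before it. CACGTG was found in 6 of the 33 genes (7.15% of all promoters), and TCACGTGA in Atg3 alone (0.974%). The letters ACGTG, which contain the core of the hypoxia element and also occur inside CACGTG, were found in 15 of the 33 (19.6%). The forkhead letters TGTTTAC were found in 0 of them, against 3.65% of all promoters. Among the 17 matched genes that rose on resting in both CD5 groups, GTCACGTG stood in 0, CACGTG in 1 (Bnip3) and ACGTG in 3. A match is a stretch of letters and not a measured binding site.

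The 20 libraries held 38211406 to 64477566 counts each, and all 39 genes passed the expression filter with 13309 genes in total. Between 62.3 and 66.2% of the counts from 1 to 10 were even in each library. The reason was not tested, and counting error may be larger than the counts alone would give. Summed over 8 CD4 T cell markers, CPM (counts relative to the scaled library total) ran from 4019.7 to 5691. Foxp3, Il2ra, Ikzf2 and Ctla4 summed to 2729 to 3013 CPM in Treg, 27.6 to 40.1 in fresh naive and 146 to 175 in rested naive libraries. The labels describe pools of both sexes. Y-linked transcripts of 4 genes nonetheless summed to 366 to 405 CPM in all 8 fresh libraries, whose Xist stayed below 1 CPM. Among rested and Treg libraries only those numbered 3 had them, and Xist was at 755 to 1736 CPM in the rest. Sex therefore goes with resting and with the Treg comparisons in all but these 3 libraries. Culture and interleukin 7 go together with resting and cannot be told apart. Summed over 12 myeloid markers, CPM was 24.5 to 37.8 in fresh and 6.43 to 10.1 in rested libraries, with C1qb, C1qc and Vcam1 at 0 in rested CD5hi cells, and was 17.5 to 22.9 in Treg. Erythroid genes summed to 33.0 to 115 CPM in fresh, 0.371 to 18.9 in rested and 1.498 to 32.7 CPM in Treg libraries. The part of these other cells in the results below was not tested.

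**Figure D1:**
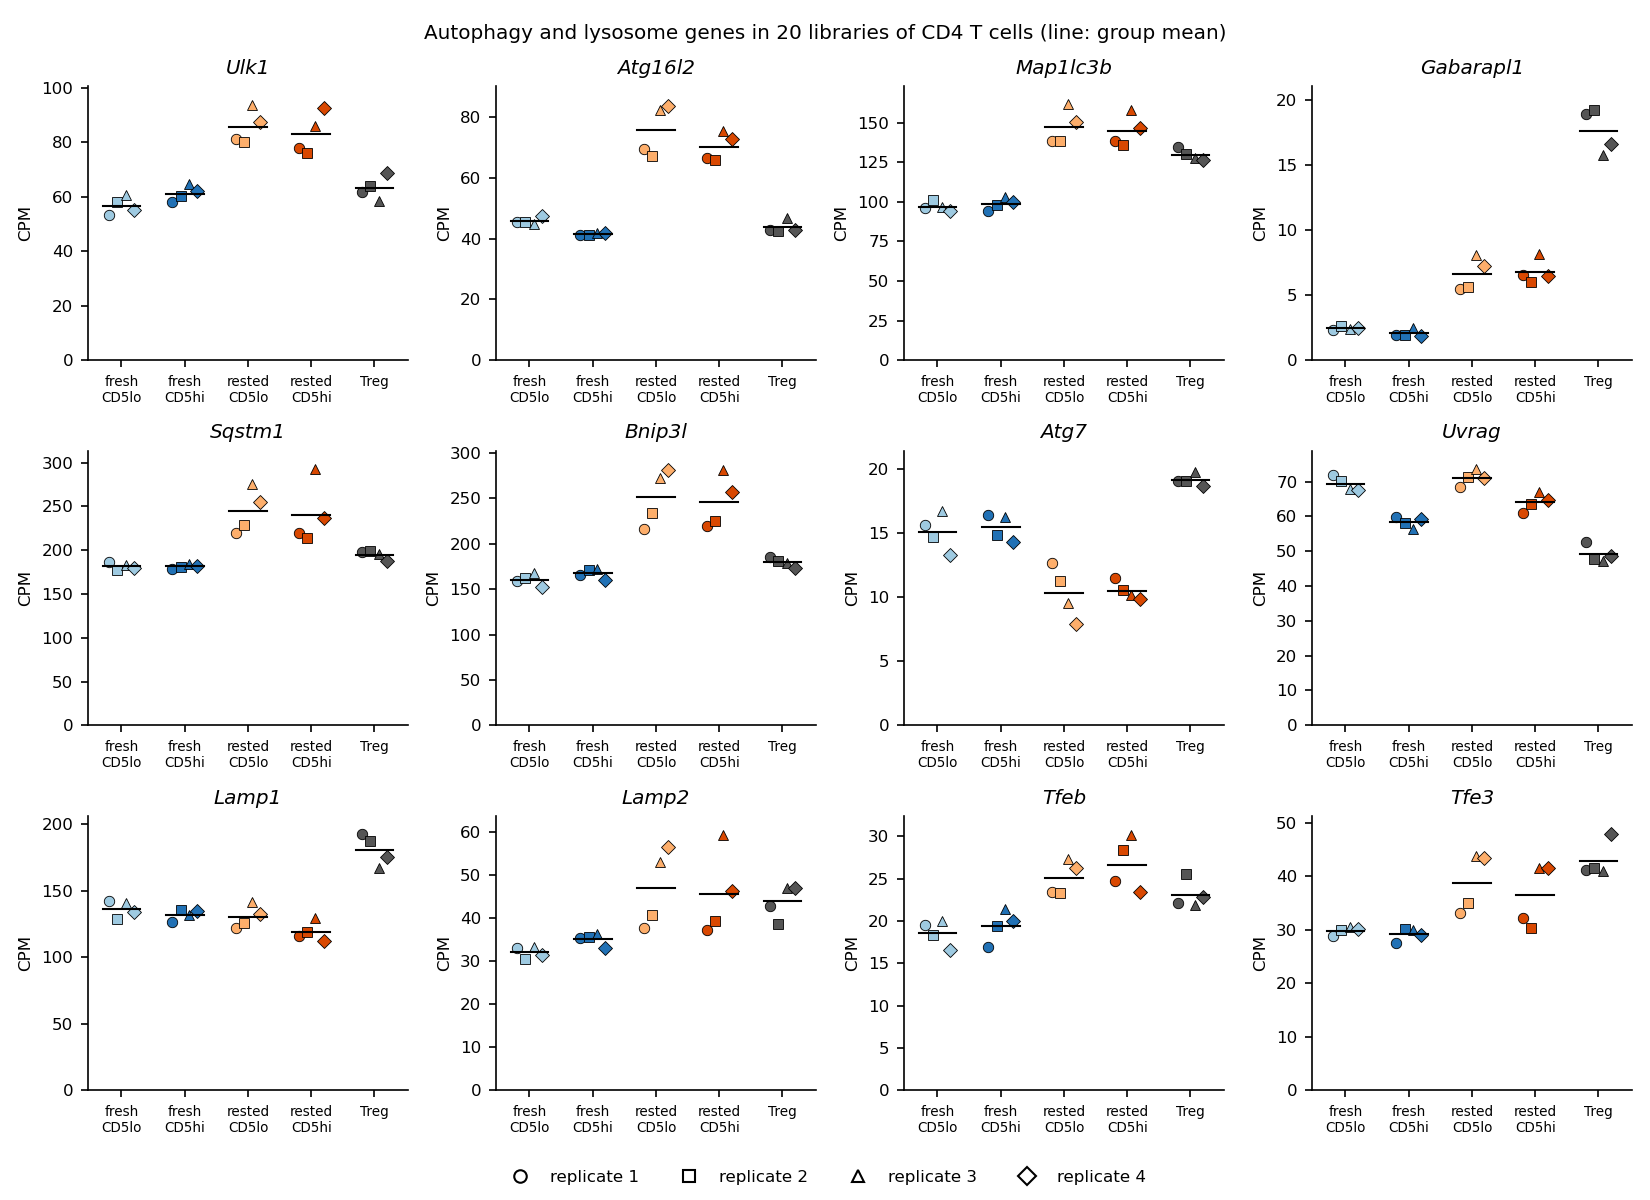
CPM of 12 of the 39 genes in each of the 20 libraries, by group, with a line at the group mean and a marker for each replicate number. The rested libraries of Ulk1, Atg16l2, Map1lc3b, Gabarapl1, Sqstm1 and Bnip3l sit above the fresh ones without overlap, and Gabarapl1, Atg7 and Lamp1 are highest in Treg.

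Most of the autophagy genes were higher in rested than in fresh cells of both CD5 groups. In CD5lo cells 23 of the 39 rose and 6 fell (edgeR, Benjamini-Hochberg adjusted p under 0.05), and among all genes 26.9% rose and 27.3% fell, 54.3% in all. In CD5hi cells the counts were again 23 and 6, against 26.2% and 26.2% of all genes and 52.4% in all. The median log2 fold change was 0.31 in CD5lo and 0.21 in CD5hi cells, with -0.01 and 0.00 over all genes. Of the 39, 21 rose in both groups, 5 fell in both, 0 moved in opposite directions and 7 were called in neither, where 22.6% of all genes rose in both, 22.3% fell in both and 0.0601% moved in opposite directions. The fresh and rested libraries did not overlap in 29 of 29 and 28 of 29 called genes, and did not in 84.7 and 83.7% of all genes called. Fewer cells that make a transcript and less of it per cell cannot be told apart in such bulk RNA.

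All 3 subunit genes of the ULK1 kinase complex in the set rose. Ulk1, the kinase that starts autophagosome formation, stood at 53.3, 58.0, 60.7 and 55.2 CPM in fresh and 81.1, 80.2, 93.8 and 87.4 in rested CD5lo cells (replicates 1 to 4). In CD5hi cells it was 57.9, 60.2, 64.5 and 62.0 CPM fresh and 77.9, 76.1, 85.9 and 92.6 rested. Every rested library thus lay above every fresh one, by a log2 fold change of 0.59 ± 0.07 in CD5lo (edgeR adjusted p = 3.7e-07) and 0.44 ± 0.07 in CD5hi cells (1.8e-05). Its relative Ulk2 rose by 0.44 and 0.37 in CD5lo and CD5hi cells, and the adaptor Atg13 by 0.31 and 0.31. Ambra1, a scaffold that binds Beclin 1, was the only one of the 4 initiation genes to fall, by a log2 fold change of -0.20 and -0.12.

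The lipid kinase complex moved in both directions. Pik3c3, the catalytic subunit VPS34, rose from 60.9 ± 2.59 to 76.1 ± 2.32 CPM (mean ± SD, n = 4) in CD5lo cells and from 59.6 ± 2.87 to 72.4 ± 3.40 in CD5hi cells. Its partner Pik3r4, or VPS15, fell from 58.7 ± 1.76 to 49.3 ± 3.27 CPM and from 58.4 ± 1.22 to 50.0 ± 2.01. With only the libraries that carry Y-linked reads, the log2 fold change of Pik3r4 in CD5hi cells was -0.15, where the rested group is replicate 3 alone. Becn1, which encodes Beclin 1, was at 137 ± 1.60 and 134 ± 6.69 CPM in fresh and rested CD5lo cells and was not called in either group. Atg14 and Uvrag, whose products bind Beclin 1 in place of one another, rose in CD5hi cells only by the test, by 0.20 and 0.13 on the log2 scale (edgeR adjusted p = 0.034 and 0.025). The call on Atg14 was lost without fresh CD5hi replicate 2 or 3 or rested CD5hi replicate 1 or 2, and that on Uvrag without fresh CD5hi replicate 2 or 3 or rested CD5hi replicate 3 or 4, each at an adjusted p of up to 0.12. The difference between the CD5 groups in the response was not called for either gene.

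Among the membrane genes, Atg2a rose and its paralog Atg2b did not. Atg2a, a lipid transfer protein that feeds the growing membrane, went from 109 ± 2.86 to 167 ± 6.00 CPM in CD5lo and from 108 ± 4.45 to 155 ± 4.92 in CD5hi cells. Atg2b was at 129.5 ± 6.12 and 121 ± 7.20 CPM, and 120.2 ± 3.83 and 114 ± 6.496, and passed in neither group (edgeR adjusted p = 0.14 and 0.28). Wipi2, which binds the lipid made by VPS34 and recruits ATG16L1, rose by 0.57 ± 0.05 and 0.49 ± 0.05 on the log2 scale. Wipi1 rose by 1.70 ± 0.34 and 1.63 ± 0.36, at a level of 0.268 ± 0.0964 CPM fresh and 0.867 ± 0.132 CPM rested in CD5lo cells. Atg9a, the membrane-spanning scramblase, was called in neither group (-0.10 and -0.01).

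The conjugation enzymes split, with the E1 and one E2 enzyme lower and ATG12 and ATG16L2 higher. Atg7, the E1 that activates both ATG12 and LC3, stood at 15.7, 14.7, 16.7 and 13.3 CPM in fresh and 12.7, 11.3, 9.54 and 7.94 in rested CD5lo cells. In CD5hi cells it was 16.5, 14.9, 16.2 and 14.3 CPM fresh and 11.5, 10.5, 10.2 and 9.83 rested. The fresh and rested libraries did not overlap, and the fall was -0.54 ± 0.11 (edgeR adjusted p = 2.2e-04) and -0.56 ± 0.11 (1.7e-04) on the log2 scale. Atg10, the E2 of ATG12, was at 3.39, 3.66, 4.81 and 3.97 CPM fresh and 2.04, 2.87, 2.07 and 2.46 rested in CD5lo cells. In CD5hi cells Atg10 was at 3.24, 4.26, 4.504 and 3.33 CPM fresh and 3.15, 2.71, 3.04 and 2.44 rested. Its fall was -0.74 ± 0.16 and -0.43 ± 0.16 (edgeR adjusted p = 4.2e-04 and 0.023), and the latter call was lost without any one of 4 libraries (fresh replicate 2 or 3, rested replicate 2 or 4), at up to 0.085. With only the libraries that carry Y-linked reads the fall of Atg10 in CD5hi cells was -0.32, with rested replicate 3 alone.

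Atg16l2, a relative of Atg16l1, had the largest rise of this group. It stood at 45.4, 45.6, 44.9 and 47.4 CPM in fresh and 69.6, 67.1, 82.4 and 83.7 in rested CD5lo cells. In CD5hi cells Atg16l2 was at 41.3, 41.3, 41.8 and 41.9 CPM fresh and 66.4, 65.9, 75.4 and 72.8 rested. The spread between the fresh libraries was small beside the gap, and the rise was 0.72 ± 0.07 (edgeR adjusted p = 9.4e-09) and 0.75 ± 0.07 (5.3e-09) on the log2 scale. Atg16l1, the subunit known from Crohn's disease, was at 66.3 ± 3.63 and 63.9 ± 1.81 CPM in fresh and rested CD5lo cells and was not called. Atg12 rose by 0.31 and 0.19. Atg5, to which ATG12 is joined, passed in CD5lo (0.27) and not in CD5hi cells (0.21), and Atg3, the E2 of LC3, in neither (-0.11 and -0.04). With only the libraries that carry Y-linked reads the rise of Atg5 in CD5hi cells was 0.55, from its high rested replicate 3 alone.

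The 4 ATG4 proteases, which trim LC3 and GABARAP proteins before conjugation and free them afterwards, did not move as one. Atg4b rose by 0.31 ± 0.04 and 0.33 ± 0.04 on the log2 scale. Atg4d stood at 96.0, 92.0, 93.7 and 95.4 CPM in fresh and 81.3, 80.2, 77.9 and 74.6 in rested CD5lo cells, and fell by a log2 fold change of -0.26 (edgeR adjusted p = 4.9e-05). In CD5hi cells Atg4d was at 91.5, 87.4, 87.3 and 88.6 CPM fresh and 74.9, 77.7, 68.7 and 72.9 rested (-0.27). Neither pair of groups overlapped for Atg4d. Atg4c, near the lower end of detection, was at 1.44, 2.02, 1.80 and 1.79 CPM fresh and 0.968, 1.36, 0.641 and 0.775 rested in CD5lo cells, a fall of -0.91 ± 0.24 (edgeR adjusted p = 0.0026). In CD5hi cells Atg4c overlapped between the states, at 1.70, 1.33, 1.17 and 1.22 and 1.30, 0.623, 0.915 and 0.939 CPM, and was not called. Atg4a was not called in either group (-0.13 and 0.06).

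All 5 genes of the LC3 and GABARAP family rose in CD5lo cells and 4 of them in CD5hi cells. Gabarapl1, which encodes a GABARAP-like protein of the autophagosome membrane, was at 2.34, 2.60, 2.41 and 2.45 CPM in fresh and 5.46, 5.64, 8.09 and 7.23 in rested CD5lo cells. In CD5hi cells Gabarapl1 went from 1.96, 1.98, 2.48 and 1.90 to 6.57, 6.05, 8.17 and 6.48 CPM. Fresh and rested libraries lay far apart, and the rise was 1.43 ± 0.13 (edgeR adjusted p = 1.5e-08) and 1.71 ± 0.14 (1.3e-09) on the log2 scale. Map1lc3a, the LC3A gene, stood at 2.93, 3.05, 2.88 and 2.53 CPM fresh and 4.86, 6.23, 7.42 and 6.76 rested in CD5lo cells. In CD5hi cells Map1lc3a was at 1.77, 2.70, 3.14 and 2.06 CPM fresh and 4.11, 6.19, 6.88 and 6.79 rested. Its rise was 1.15 ± 0.18 and 1.31 ± 0.18 without overlap (edgeR adjusted p = 1.9e-05 and 4.7e-06).

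Map1lc3b, the LC3B gene used most as a marker of autophagosomes, rose from 94.1 to 101 CPM to 138 to 161 in CD5lo cells and from 94.4 to 103 to 136 to 158 in CD5hi cells. The changes were 0.60 ± 0.05 and 0.55 ± 0.05 on the log2 scale. Gabarapl2 rose by 0.32 and 0.26, though its call in CD5hi cells was lost without rested CD5hi replicate 3 (edgeR adjusted p = 0.055). Gabarap passed in CD5lo cells (0.27) and stood just short of the threshold in CD5hi cells (0.20, edgeR adjusted p = 0.051). In CD5hi cells Gabarap was called without rested replicate 1, 2 or 4 (edgeR adjusted p = 0.032, 0.042 and 0.046). Rested CD5hi replicate 3 was its high library, and with only the libraries that carry Y-linked reads, where that replicate stands alone, the rise was 0.52. The call in CD5lo cells was lost without rested CD5lo replicate 4, at an adjusted p of 0.070.

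Of the 5 cargo and mitophagy receptor genes, 4 rose in both groups. Sqstm1, which encodes p62, was at 186, 177, 183 and 180.2 CPM in fresh and 219.6, 229, 276 and 255 in rested CD5lo cells. In CD5hi cells Sqstm1 went from 179, 181, 184 and 182 to 219.9, 214, 293 and 236 CPM. The rested libraries spread far more than the fresh ones but did not overlap them, with a rise of 0.43 ± 0.08 (edgeR adjusted p = 6.9e-05) and 0.41 ± 0.08 (1.4e-04) on the log2 scale. Bnip3l, also called NIX, a receptor on mitochondria, was at 159, 163, 167 and 153 CPM fresh and 217, 234, 272 and 281 rested in CD5lo cells. In CD5hi cells Bnip3l stood at 166, 171, 173 and 159.8 and 219, 225, 282 and 257 CPM. It rose by 0.65 ± 0.08 and 0.55 ± 0.08, and its relative Bnip3, a target of hypoxia-inducible factor, by 0.65 ± 0.13 and 0.62 ± 0.13. Nbr1, a receptor for ubiquitinated cargo, rose by 0.20 and 0.18. With only the libraries that carry Y-linked reads the rise of Nbr1 in CD5hi cells was 0.11, with rested replicate 3 alone. Optn, at 1.07 ± 0.182 CPM in fresh CD5lo cells, was the 1 receptor gene not called in either group.

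Both transcription factor genes of the lysosome program rose, and the 2 LAMP genes, which encode the main membrane glycoproteins of lysosomes, parted. Tfeb was at 19.5, 18.3, 19.999 and 16.6 CPM in fresh and 23.5, 23.3, 27.3 and 26.2 in rested CD5lo cells. In CD5hi cells it was at 16.9, 19.4, 21.4 and 19.97 CPM fresh and 24.7, 28.4, 30.2 and 23.4 rested, again without overlap, and the rise was 0.43 ± 0.09 and 0.46 ± 0.09 on the log2 scale. Tfe3, on the X chromosome, was at 28.8, 30.0, 30.6 and 30.1 CPM fresh and 33.2, 35.0, 43.7 and 43.4 rested in CD5lo cells. In CD5hi cells Tfe3 stood at 27.6, 30.1, 29.9 and 29.1 CPM fresh and 32.2, 30.4, 41.6 and 41.6 rested. The rested replicates 3 and 4 were well above replicates 1 and 2 in both groups, and the changes were 0.38 ± 0.10 and 0.32 ± 0.10.

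Lamp2, also X-linked and the receptor of chaperone-mediated autophagy in one of its forms, was at 33.1, 30.5, 33.3 and 31.5 CPM fresh and 37.7, 40.6, 53.0 and 56.5 rested in CD5lo cells. In CD5hi cells Lamp2 stood at 35.3, 35.6, 36.3 and 33.0 and 37.2, 39.3, 59.2 and 46.4 CPM. Its rise was 0.55 ± 0.13 (edgeR adjusted p = 9.7e-04) and 0.38 ± 0.13 (0.016) on the log2 scale, and the latter call was lost without rested CD5hi replicate 3 (0.12). With only the libraries that carry Y-linked reads, the rise of Lamp2 was 0.74 and 0.77 and that of Tfe3 0.57 and 0.53, where each rested group is replicate 3 alone, one of its higher libraries for both genes. Lamp1 was at 142, 129, 140.4 and 134 CPM fresh and 122, 126, 141 and 133 rested in CD5lo cells, and was not called there. In CD5hi cells Lamp1 stood at 126, 135, 132 and 135 and 116, 119, 129.6 and 112 CPM, overlapping groups that edgeR called lower (-0.15, adjusted p = 0.032). This call was lost without any one of 6 of the 8 libraries (up to 0.12). With only the libraries that carry Y-linked reads the change of Lamp1 in CD5hi cells was -0.01.

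**Figure D2:**
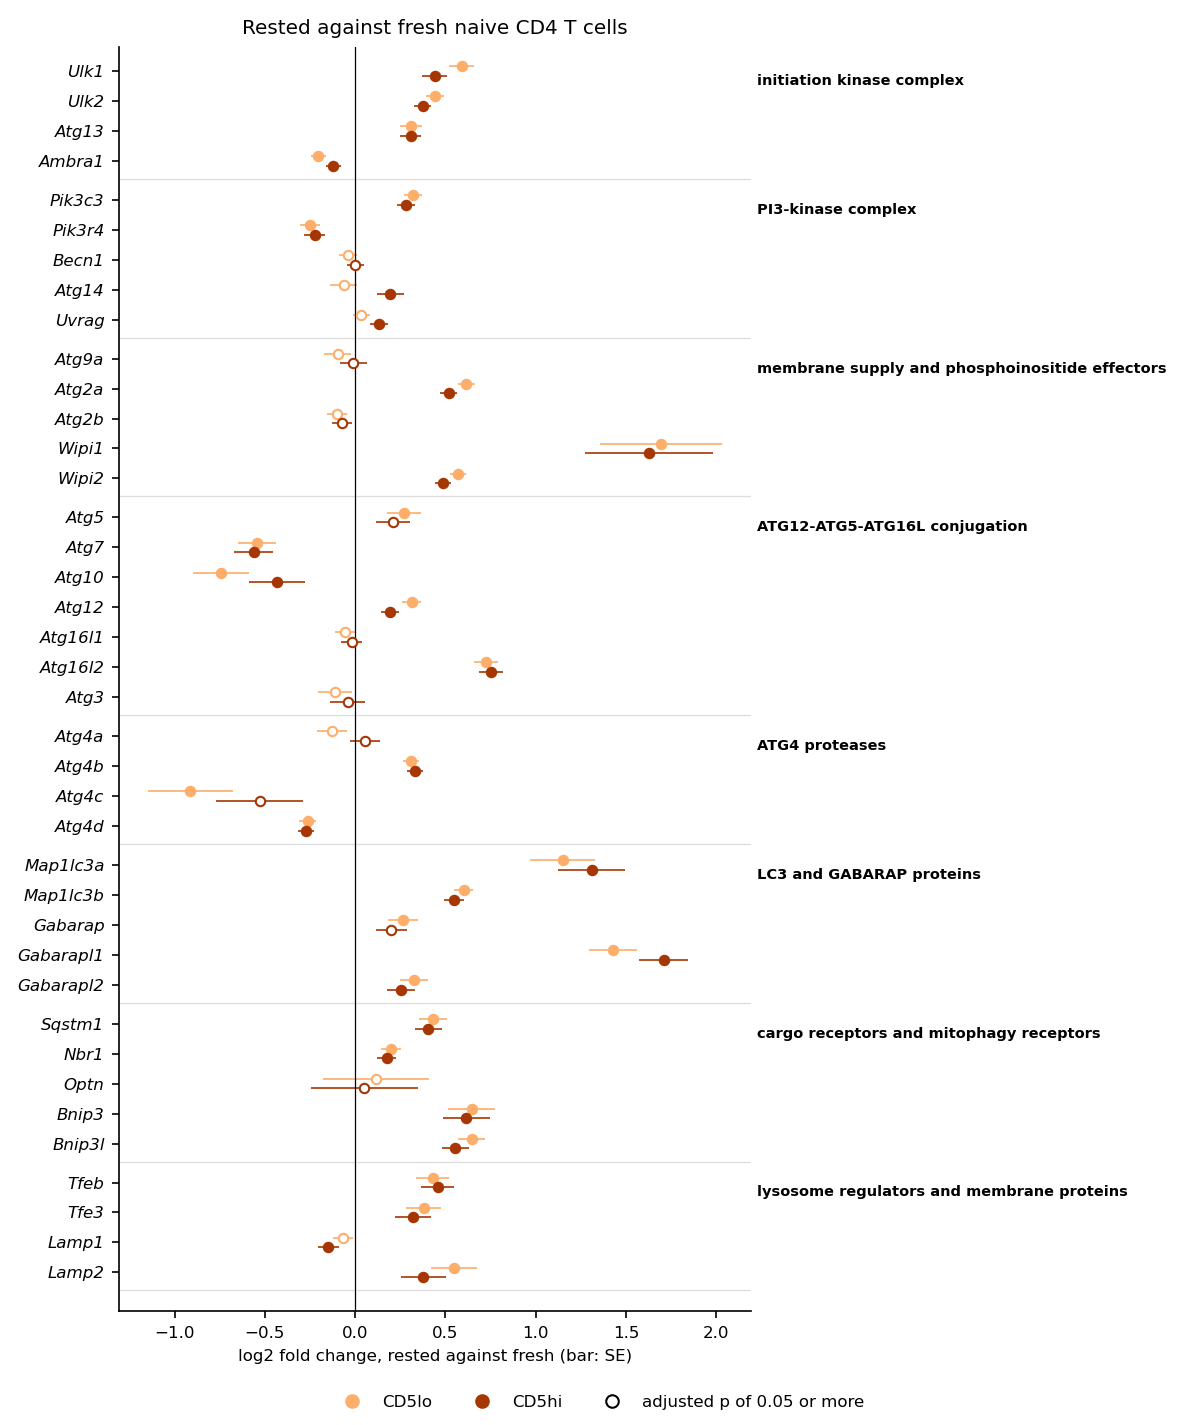
Log2 fold change from fresh to rested of each of the 39 genes by role in the pathway, with CD5lo in light and CD5hi in dark orange, bars for the SE and open circles for an edgeR adjusted p of 0.05 or more. In both CD5 groups 21 genes lie to the right with filled circles and 5 to the left, and Gabarapl1, Wipi1 and Map1lc3a lie farthest right.

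The rested libraries were not alike in these genes. Both replicates 3 and 4 lay above both replicates 1 and 2 for 19 of the 39 genes in rested CD5lo cells, and below them for 7, with 31.2 and 33.6% of all genes in these positions. In rested CD5hi cells the counts were 16 and 4, with 23.4 and 24.6% of all genes. Of the 39, 11 lay above in both groups, Sqstm1, Bnip3l, Lamp2, Tfe3, Ulk1 and Atg16l2 among them. The share of all genes that lay above in both was not counted, and same-numbered rested libraries are correlated. With rested replicates 1 and 2 alone, 21 genes rose and 7 fell in CD5lo cells and 18 rose and 4 fell in CD5hi cells, with medians of 0.18 and 0.13. The shares of all genes there were 22.1 and 23.7% in CD5lo and 22.3 and 23.5% in CD5hi cells. With replicates 3 and 4 alone, 23 rose and 8 fell in CD5lo cells and 24 rose and 5 fell in CD5hi cells, with medians of 0.35 and 0.34, and with 28.4 and 28.1% and 26.6 and 26.2% of all genes. In CD5hi cells the rise of Tfe3 was 0.09 with the first pair and 0.52 with the second, and that of Lamp2 0.11 and 0.60, and neither was called with the first pair. What sets these libraries apart was not tested. Single libraries also ended calls on resting in CD5hi cells for Tfe3 (without rested replicate 3 or 4, edgeR adjusted p = 0.053 and 0.055), Nbr1 (without rested replicate 4, 0.052) and Ambra1 (without fresh replicate 4, 0.051), and in CD5lo cells for Atg5 (without fresh replicate 2 or 4 or rested replicate 3 or 4, up to 0.080).

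In Treg the 39 genes were called no more often than genes in general. Against fresh CD5lo cells 10 of the 39 were higher and 8 lower (edgeR, adjusted p under 0.05), and among all genes 29.2% were higher and 29.4% lower, 58.5% in all. Against fresh CD5hi cells 10 were higher and 10 lower, with 27.5 and 26.6% of all genes and 54.2% in all. The medians were 0.04 and 0.05 on the log2 scale, with -0.03 and -0.02 over all genes. The 10 higher genes were the same against both naive groups, Atg7, Atg12, Map1lc3b, Gabarap, Gabarapl1, Wipi2, Tfeb, Tfe3, Lamp1 and Lamp2. Another 8 were lower against both. Of all genes 24.7% were higher against both, 23.3% lower and 0.316% opposite, and both comparisons use the same Treg libraries.

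Gabarapl1 differed most. Its level in Treg was 19.0, 19.2, 15.8 and 16.6 CPM, above each fresh and each rested naive library. That was 7.20 times the fresh CD5lo level and 8.46 times the fresh CD5hi level, or 2.85 ± 0.14 (edgeR adjusted p = 7.0e-14) and 3.08 ± 0.14 (3.4e-14) on the log2 scale. In the same family Map1lc3b was higher, with 126 to 135 CPM in Treg and differences of 0.42 and 0.39. Gabarap was higher too, at 133 ± 8.07 CPM (0.31 and 0.29). Gabarapl2 and Map1lc3a were not called, with 48.8 ± 3.59 and 2.19 ± 0.283 CPM in Treg.

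All 4 lysosome genes were higher in Treg than in both fresh naive groups. Lamp1 stood at 192, 188, 167 and 175 CPM in Treg, above each of the 16 naive libraries, with differences of 0.40 ± 0.06 (edgeR adjusted p = 2.1e-06) and 0.45 ± 0.06 (5.6e-07) on the log2 scale. Tfe3 was at 41.2, 41.5, 40.9 and 47.8 CPM in Treg, above the fresh libraries and level with the upper rested ones. The differences of Tfe3 were 0.52 ± 0.10 and 0.55 ± 0.10 (edgeR adjusted p = 1.0e-04 and 6.0e-05). Lamp2 was at 42.9, 38.6, 46.9 and 47.1 CPM (0.45 and 0.32), and Tfeb at 22.2, 25.5, 21.9 and 22.9 CPM (0.31 and 0.25). Within the libraries with Y-linked reads Treg is replicate 3 alone, assumed to vary like the other groups. There the difference in Lamp2 was 0.56 and 0.43 and that in Tfe3 0.47 and 0.50. That in Tfeb was 0.25 and 0.19, below its 0.31 and 0.25 with all libraries, and was not called. The part of sex in these differences was not tested. The call on Lamp2 against CD5hi cells was lost without any one of 5 libraries (fresh CD5hi replicate 1, 2 or 4, Treg replicate 3 or 4), at up to 0.087, and that on Tfeb without fresh CD5hi replicate 1 or Treg replicate 2 (0.097 and 0.076).

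The conjugation genes Atg7 and Atg12 were higher in Treg as well. Atg7 was at 19.1, 19.1, 19.8 and 18.7 CPM, above each naive library, and so higher in Treg by 0.34 and 0.31 where it had fallen in rested cells. Without fresh CD5hi replicate 4 the difference in Atg7 from CD5hi cells missed the threshold (edgeR adjusted p = 0.057). Wipi2 was higher by 0.30 and 0.23 and Atg12 by 0.22 and 0.21. The cargo receptors did not pass against either naive group, and their differences ran from -0.09 for Nbr1 to 0.59 for Optn against CD5lo cells. These calls depend on the fit. With only the compared groups Sqstm1, Optn, Bnip3 and Bnip3l were called higher against both naive groups, at 0.12, 0.60, 0.30 and 0.18 against CD5lo cells (edgeR adjusted p = 0.018, 0.013, 0.017 and 0.0024). In DESeq2 Bnip3 was called against both (0.31 and 0.33, adjusted p = 0.040 and 0.030) and Bnip3l against CD5lo cells (0.19, 0.040).

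Among the lower genes in Treg, the largest differences from CD5lo cells were those of Uvrag, Atg2b and Atg9a. Uvrag, which steers the VPS34 complex to endosomes, was at 52.7, 47.8, 47.1 and 48.7 CPM in Treg, 71.9, 70.1, 67.9 and 67.7 in fresh CD5lo and 59.96, 58.2, 56.3 and 59.1 in fresh CD5hi cells. The 3 groups did not overlap, and the differences were -0.50 ± 0.05 (edgeR adjusted p = 9.5e-09) and -0.25 ± 0.05 (1.4e-04) on the log2 scale. Atg2b was at 91.4, 91.6, 89.2 and 104 CPM in Treg, 122, 128, 137 and 130.3 in fresh CD5lo and 120.0, 118, 126 and 117 in fresh CD5hi cells, a difference of -0.46 and -0.36. Atg9a was at 40.7, 39.9, 37.0 and 41.2 CPM in Treg, 50.9, 55.0, 49.4 and 54.1 in fresh CD5lo and 49.7, 51.7, 48.3 and 52.5 in fresh CD5hi cells (-0.40 and -0.35). Each Treg library was thus below each fresh naive library for Uvrag, Atg2b and Atg9a. Atg14, which steers VPS34 to autophagosomes, was at 18.4, 17.0, 20.3 and 19.2 CPM in Treg and lower by -0.26 and -0.34, but not called among libraries with Y-linked reads, where Treg is again 1 library (-0.13 and -0.21, edgeR adjusted p = 0.41 and 0.19).

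Atg4d was at 71.5, 71.2, 73.6 and 76.5 CPM in Treg, lower by -0.36 and -0.28 and close to its rested level. Pik3c3 (-0.19 and -0.16), Atg3 (-0.31 and -0.25) and Ambra1 (-0.14 and -0.10) were lower against both naive groups. Becn1 (-0.12) and Atg16l1 (-0.15) were lower against CD5hi cells alone by the test. The calls on Ambra1, Atg3, Atg16l1 and Becn1 against CD5hi cells were each lost in edgeR with size factors from DESeq2's method, in DESeq2 and without at least 5 of the 8 single libraries, and the scaling left 6 lower genes there in place of 10. Against CD5lo cells the calls on Ambra1 (without Treg replicate 3, edgeR adjusted p = 0.051) and Atg3 (without fresh CD5lo replicate 1 or Treg replicate 4, 0.069 and 0.058) were lost too, and against CD5hi cells that on Pik3c3 (without Treg replicate 3, 0.064). Ulk1, Ulk2, Atg13, Atg2a and Atg4b, all higher after resting, were not called in Treg. Ulk1 was called higher than in CD5lo cells, however, in edgeR with the other size factors (0.19, adjusted p = 0.032), with the 1 CPM filter, with only the compared groups and with the block over all groups, and in DESeq2 (0.19, adjusted p = 0.024).

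**Figure D3:**
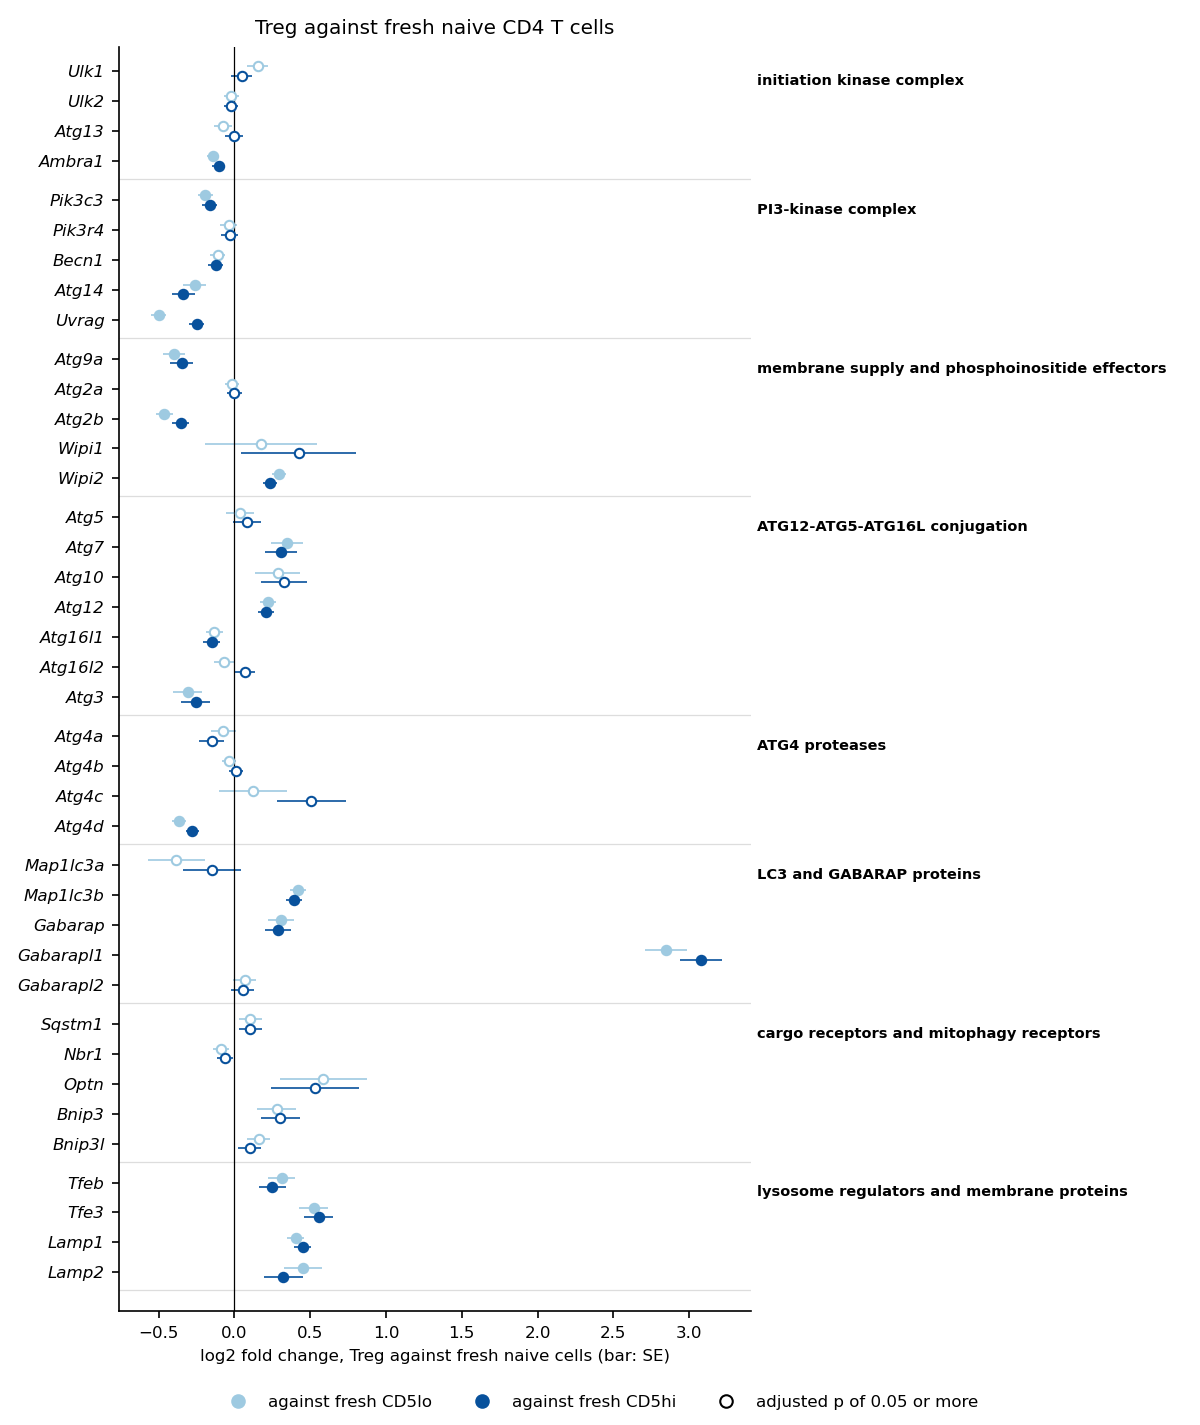
Log2 fold change of the 39 genes in Treg against fresh CD5lo (light blue) and fresh CD5hi cells (dark blue), by role, with bars for the SE and open circles for an edgeR adjusted p of 0.05 or more. Gabarapl1 lies alone at 2.85 and 3.08, the 4 lysosome genes lie to the right, and Uvrag, Atg2b, Atg9a, Atg14 and Atg4d lie to the left.

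Set side by side, 7 genes were higher both in rested naive cells and in Treg than in fresh cells of both CD5 groups, namely Atg12, Map1lc3b, Gabarapl1, Wipi2, Tfeb, Tfe3 and Lamp2. A further 13 rose on resting and were not called in Treg in both comparisons, among them Ulk1, Atg2a, Atg16l2, Sqstm1 and Bnip3l. Pik3c3 was higher on resting and lower in Treg, and Atg7 the reverse. Atg4d and Ambra1 were lower in both, and Atg10 and Pik3r4 were lower on resting only. Atg10 was called higher in Treg than in CD5hi cells, however, in DESeq2 (0.36, adjusted p = 0.038) and with the 1 CPM filter (0.36, edgeR adjusted p = 0.047). It was also called higher than in CD5lo cells without fresh CD5lo replicate 3 (0.41, edgeR adjusted p = 0.031). Among libraries with Y-linked reads, where Treg is its low replicate 3 alone, Pik3r4 was at -0.19 against each naive group. The share of all genes with each of these joint patterns was not counted. The comparisons also share the fresh libraries, so no overlap is tested and the counts only describe these genes.

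Few of these genes were called as differing by surface CD5 within a state. In fresh cells 1 of the 39 was called, as lower in CD5hi cells, where edgeR called 11.5% of all genes (6.86% higher, 4.59% lower). An unadjusted edgeR p under 0.05 was found for 2 of the 39 and for 2795 of all 13309 genes. After resting 1 was called, as higher, with 8.2% of all genes (4.74% higher, 3.46% lower). There 7 of the 39 had an unadjusted edgeR p under 0.05, a share close to that of all genes (2512 of 13309). The fresh differences ran from -0.38 (Atg4c) to 0.13 (Lamp2) on the log2 scale and the rested ones from -0.32 (Wipi1) to 0.33 (Atg14). The 95% interval of the difference lay within 1.5-fold for 35 genes when fresh, all but Atg4c, Map1lc3a, Optn and Wipi1, and for 36 when rested, all but Atg10, Optn and Wipi1. For these few genes the data leave room for larger differences.

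The 2 genes called belong to the lipid kinase complex and encode alternative partners of Beclin 1. Uvrag was at 71.9, 70.1, 67.9 and 67.7 CPM in fresh CD5lo and 59.96, 58.2, 56.3 and 59.1 in fresh CD5hi cells, without overlap, a difference of -0.25 ± 0.05 (edgeR adjusted p = 8.2e-04). After resting it was at 68.4, 71.3, 73.7 and 71.1 CPM in CD5lo and 60.8, 63.5, 67.1 and 64.6 in CD5hi cells, again without overlap, at -0.15 ± 0.05 (0.053). Both states thus show less Uvrag in CD5hi libraries, and only the fresh difference passed. Atg14 was at 23.7, 21.9, 19.6 and 20.8 CPM in rested CD5lo and 27.8, 27.9, 26.2 and 26.6 in rested CD5hi cells, higher by 0.33 ± 0.08 (edgeR adjusted p = 0.0060). In fresh cells Atg14 stood at 25.1, 21.4, 21.5 and 21.9 and 25.9, 22.2, 21.5 and 25.1 CPM, which overlap (0.07). The Atg14 call was lost with rested replicates 1 and 2 alone (0.098).

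Within a state, CD5lo and CD5hi libraries that bear the same number were correlated, and a fit with the replicate number as a block called more genes, 21.9% of all genes when fresh and 18.5% when rested. The shares of the 39 were below these. When fresh it called 3 lower genes, Uvrag, Atg16l2 (-0.14, edgeR adjusted p = 0.016) and Atg2b (-0.11, 0.036). When rested it called 5, with Atg14 and Atg4a (0.26, 0.0011) higher and Uvrag (-0.15, 0.0040), Lamp1 (-0.13, 0.044) and Atg2a (-0.11, 0.0498) lower in CD5hi cells. Without rested CD5hi replicate 3 the unblocked fit called 4, adding Atg4a, Uvrag and Atg5. The change of the CD5 difference on resting passed for 0 of the 39 genes in edgeR (smallest adjusted p = 0.63, with 0.451% of all genes called), in DESeq2 and with the block. Its unadjusted edgeR p was under 0.05 for 1 of the 39 and for 848 of all 13309 genes.

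**Figure D4:**
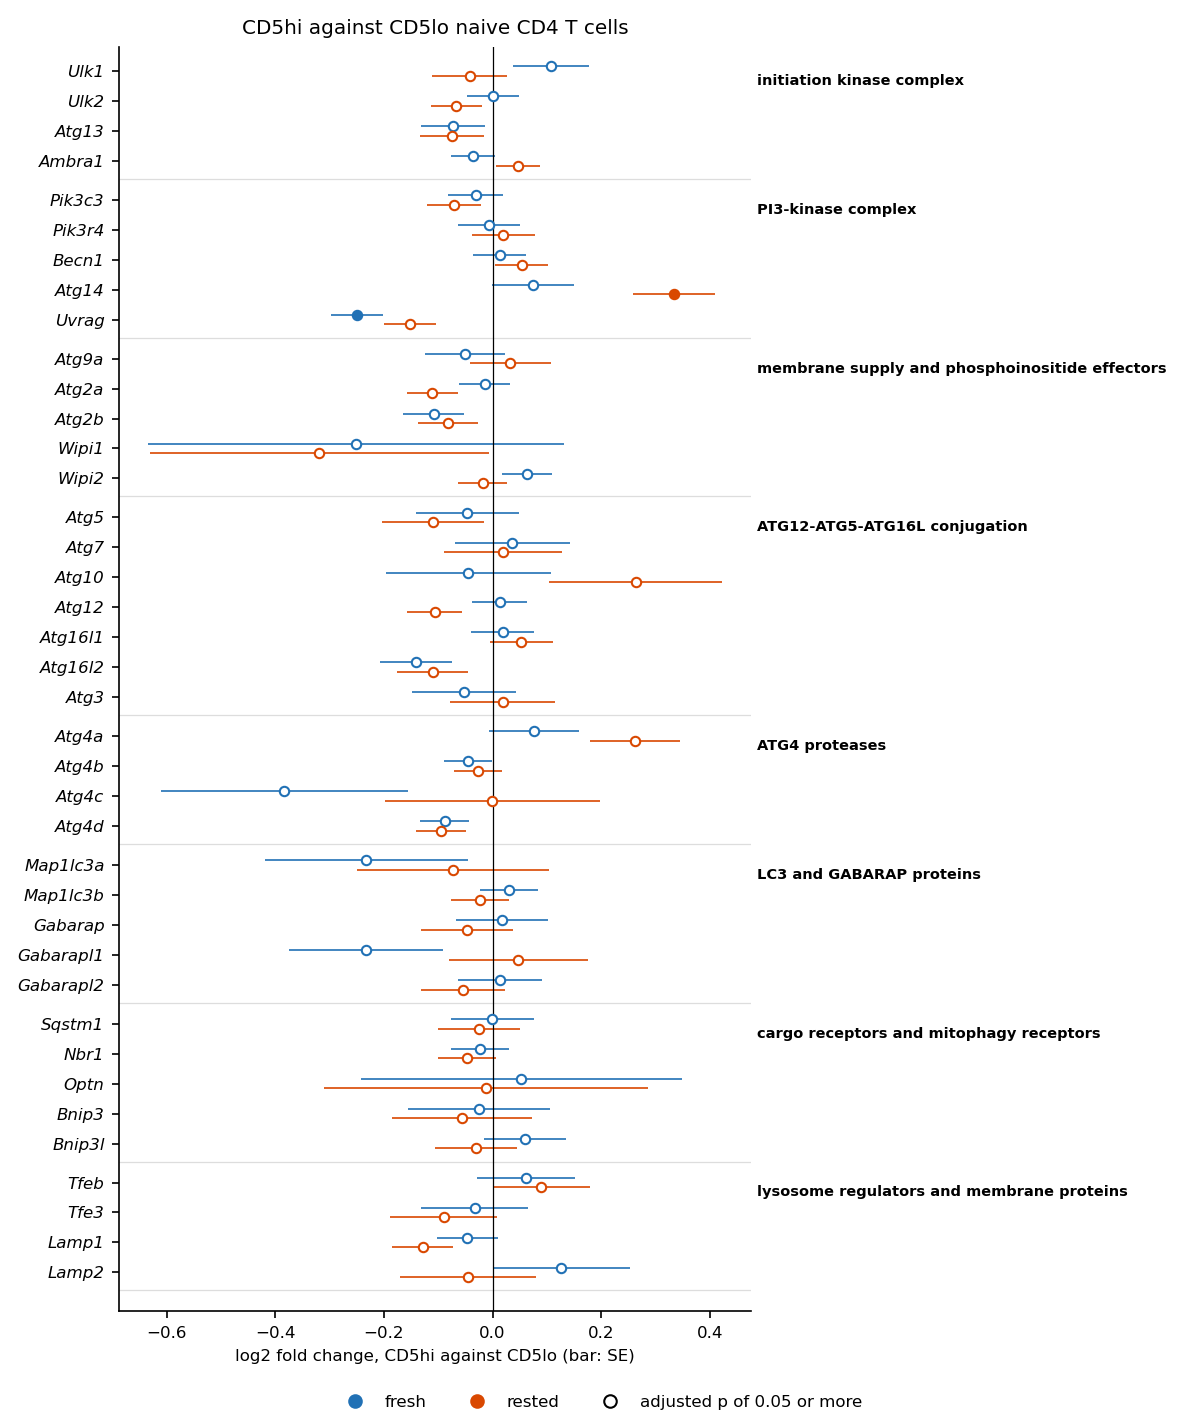
Log2 fold change of the 39 genes in CD5hi against CD5lo cells, fresh (blue) and rested (orange), by role, with bars for the SE and open circles for an edgeR adjusted p of 0.05 or more. Uvrag when fresh and Atg14 when rested are the only filled circles, and the widest bars belong to the low genes Wipi1, Optn and Atg4c.

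Other autophagy genes, listed beside the 39 from knowledge of the pathway and with earlier results of these data known, moved in like proportions on resting. Of 25 tested, 14 rose and 3 fell in each CD5 group, with medians of 0.23 in CD5lo and 0.20 in CD5hi cells. For this list and the 3 below, 26.9% of all genes rose and 27.3% fell in CD5lo cells, and 26.2 and 26.2% in CD5hi cells. In Treg 29.2% of all genes were higher and 29.4% lower against CD5lo cells, and 27.5 and 26.6% against CD5hi cells. Pink1, the kinase that marks damaged mitochondria, rose from 108 ± 11.7 to 222 ± 29.2 CPM in CD5lo cells (1.04 ± 0.11) and from 104 ± 8.21 to 208 ± 25.7 in CD5hi cells (0.99 ± 0.11). Rb1cc1, or FIP200, the scaffold of the ULK1 complex, rose by 0.73 and 0.61, Wdr45, a relative of WIPI2, by 0.99 and 0.96, and the cargo receptor Tax1bp1 by 0.72 and 0.69. In Treg 7 were higher and 7 lower against each fresh group. Vmp1, needed for early membrane growth, was higher (1.29 and 1.19), as was the fusion protein Vamp8 (0.72 and 0.72). Tecpr1 was lower (-0.77 and -0.85), Stx17, a fusion protein of autophagosomes, was lower (-0.61 and -0.45) and Hdac6 was higher (0.50 and 0.53). Rubcn, an inhibitor of the VPS34 complex that binds UVRAG, was the only one called between CD5 groups, lower in CD5hi cells when fresh (-0.19) and rested (-0.24).

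Lysosomal enzymes, membrane proteins and proton pump subunits did not rise as a set on resting. Of 35 tested, 7 rose and 15 fell in CD5lo cells and 7 rose and 17 fell in CD5hi cells, with medians of -0.09 and -0.13. Ctsl, which encodes cathepsin L, rose by 1.21 and 1.31 and Atp6v1d, a pump subunit, by 1.10 and 0.96. The enzymes Naglu (-0.91 and -0.94) and Gaa (-0.82 and -0.84), which digest heparan sulfate and glycogen, fell. In Treg 11 were higher and 13 lower against CD5lo cells, and 9 and 14 against CD5hi cells, with the cathepsins Ctsz (1.07 and 0.91) and Ctsb (0.68 and 0.52) higher and the cholesterol carrier Npc2 lower (-0.95 and -0.55). Lipa (-0.84 and -0.39) and Sgsh (-0.53 and -0.85) were lower in Treg too. Between CD5 groups 6 (17.1%) were called when fresh and 4 (11.4%) when rested, beside 11.5 and 8.2% of all genes. Lipa (-0.45 and -0.48) and Npc2 (-0.40 and -0.34) were lower and Manba higher (0.34 and 0.19) in CD5hi cells in both states. Psap was lower in both states as well (-0.21 and -0.14), and Ctsl was called lower when fresh (-0.41) and not when rested (-0.30). Some of these genes are also high in myeloid cells, whose markers were lower in rested libraries as given above.

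Among the 33 genes of mTORC1, AMPK and nutrient signalling, which control ULK1 and TFEB, 15 rose and 7 fell in CD5lo cells and 16 rose and 6 fell in CD5hi cells on resting. Ddit4, an inhibitor of mTORC1 induced by stress, fell from 162 ± 42.8 to 21.4 ± 1.36 CPM in CD5lo cells (-2.92 ± 0.19) and from 238 ± 57.4 to 27.6 ± 4.21 in CD5hi cells (-3.11 ± 0.19). Rragd, a Rag GTPase that places TFEB and mTORC1 on lysosomes, rose by 1.98 ± 0.15 and 2.12 ± 0.15, and Fnip1, a partner of folliculin, by 1.85 ± 0.06 and 1.90 ± 0.06. Sesn1, a leucine sensor, rose by 1.24 and 1.21, and Deptor, an mTOR inhibitor, by 1.02 and 1.21. In Treg 8 were higher and 8 lower against CD5lo, and 8 and 10 against CD5hi cells. These are 48.5 and 54.5% of the list, beside 58.5 and 54.2% of all genes. Rragd was higher there too (2.75 and 2.65), with Sesn2 (1.73 and 1.46) and Fnip2 (1.05 and 0.95), and Sesn1 (0.85 and 0.90). Mitf, a relative of Tfeb, was lower in Treg (-1.28 and -0.78), and lower in CD5hi than in CD5lo cells when fresh (-0.51) and rested (-0.55). The other calls between CD5 groups were Ddit4 (0.56 fresh, 0.37 rested) and Sesn3 (0.35 fresh, 0.13 rested), both higher in CD5hi cells and called only when fresh.

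Of 19 targets of hypoxia-inducible factor tested, a family to which Bnip3 belongs, 10 rose and 3 fell in CD5lo cells and 12 rose and 2 fell in CD5hi cells on resting. Ndrg1 rose by 2.08 and 1.26, P4ha1 by 1.10 and 1.05, Mxi1 by 1.04 and 0.93, and Hk2 by 1.14 and 1.93. Vegfa was called in CD5hi cells (1.15) and not in CD5lo cells (-0.34), without a called difference between them, and Ddit4, which both lists hold, fell. In Treg 6 were higher and 6 lower against CD5lo cells and 5 and 6 against CD5hi cells. Hk2, hexokinase 2, was higher by 4.85 and 4.43 and Egln3 by 2.36 and 2.92. Pdk1 was lower by -1.94 and -0.99, P4ha1 was higher by 0.87 and 1.13, and Vegfa was called lower than in CD5lo cells (-2.05) and not than in CD5hi cells (-0.64). Between CD5 groups Ndrg1 was higher (1.66 fresh, 0.84 rested) and Pdk1 lower (-0.94 and -0.74) in CD5hi cells in both states, Vegfa was called lower when fresh (-1.41; 0.08 rested), and Hk2 higher when rested (1.21; 0.42 fresh).

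**Figure D5:**
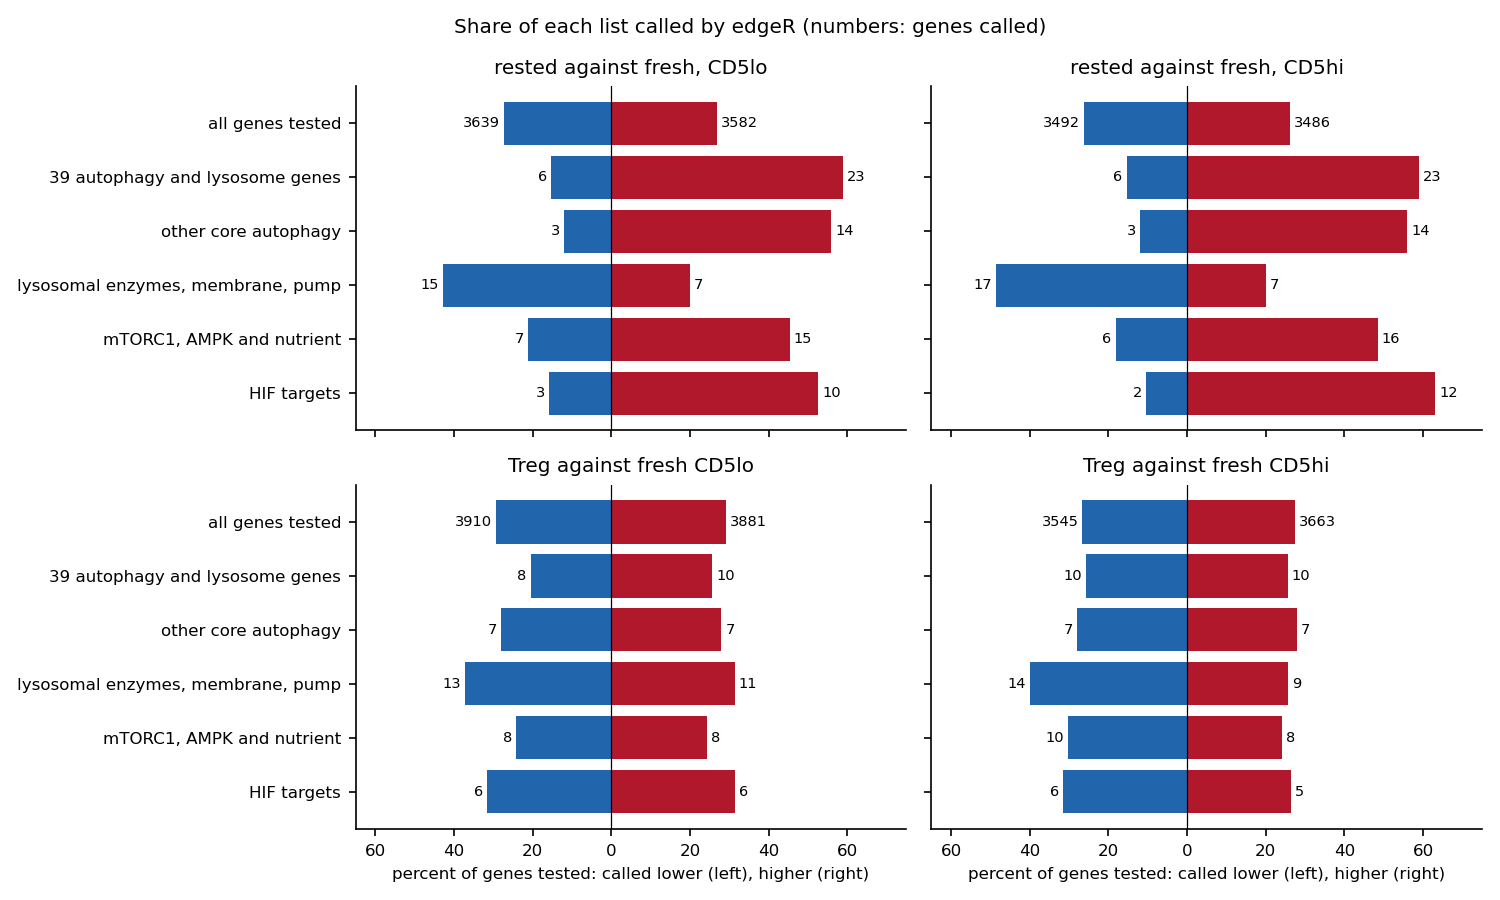
Percent of the tested genes of each list that edgeR called lower (left, blue) or higher (right, red) in 4 comparisons, with the number of genes beside each bar. On resting the 39 genes and the other core autophagy genes lean to the right (23 and 14 higher), the lysosomal list leans to the left, and in Treg the bars of the autophagy lists are near even.

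The genes whose levels most resembled those of 4 of the 39 were sought over the 20 libraries, by Pearson's r of log2 CPM with 0.5 added, among genes with a mean of at least 5 CPM. Such values follow the shared steps between the 5 groups and are given as a description. Nearest to Gabarapl1, with its high Treg level, were Tmem2 (r = 0.982), Rnf19b (0.980), Dusp1 (0.980), Srgn (0.979) and Plxnd1 (0.978). Bnip3l lay nearest to Ccng2 (0.986), Ube2b (0.985), Cdkn1b (0.984), Tax1bp1 (0.983) and Eri1 (0.983), 1 of which, Tax1bp1, is among the autophagy genes listed above. For Sqstm1 the nearest were AI837181 and Ppm1a (0.972 and 0.971), and for the lower Bnip3 they were Ghitm and Sepx1 (0.936 and 0.930).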

How the data were processed

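The 20 libraries (5 groups of 4) were made with an mRNA kit and read as pairs of 50 cycles, per the labels' protocols. The authors deposited whole-number counts per gene symbol. Per the submitters' processing notes, TopHat2 (version 2.0.11), build mm9, featureCounts (1.4.5, from Subread) and edgeR were used. How they were combined, with which annotation and strand setting, is not given in the sources used here, and reads of overlapping antisense genes may be mixed. A second deposited table of normalized signal, with 10147 genes and 36 of the 39, was proportional to the counts within each library and was used only for that check.

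Here the counts were fitted with edgeR 4.0.16 in R 4.3.3 (quasi-likelihood F test, TMM scaling, default expression filter, 1 factor with 5 levels, 15 residual degrees of freedom), and p-values were adjusted over all 13309 tested genes within each of 7 comparisons. Calls are genes with an adjusted p below 0.05. The SE is the log2 fold change over the square root of F, which is unreliable near 0, and intervals are 95%. The procedure was tested on simulated counts. Same-numbered CD5lo and CD5hi libraries of 1 state correlated in their deviations from the group means in every pair (r from 0.160 to 0.299 fresh and 0.189 to 0.517 rested). Between fresh and rested groups r was small, from -0.0604 to 0.0867. Replicate 3 of Treg correlated with replicate 3 of rested CD5lo (0.376) and rested CD5hi cells (0.357). The block was therefore used within states, and a block over all groups was run as a further alternative. Alternatives were DESeq2 1.42.0, other scaling and filters, only the compared groups, the block, each library left out, libraries with Y-linked reads, and, chosen after seeing the data, rested replicates 1 and 2 or 3 and 4 alone.

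The 39 genes, the gene lists and the motifs were chosen with earlier results of these data known. Values in each library were given for genes called in a comparison and among its 3 largest changes in either direction with at least 1 CPM. Those of Ulk1, Sqstm1, Bnip3l and Tfeb were added after their values were seen. Of each other list, up to 4 called genes per comparison were named by size of change. Promoter sequences are from RefSeq (GRCm38.p6), a build other than that of the counts, and coordinates refer to it alone.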

Additional observations from a re-analysis of the deposited data

Results flagged for a closer look

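In 16 of the 195 sets of 4 libraries (39 genes in 5 groups) the highest or lowest library stood apart from the other 3 by more than Dixon's 95% limit, where chance gives about 1 in 20. Rested CD5hi replicate 3, which carried Y-linked reads, was such a library for 5 genes. It was highest for Gabarap (155 CPM, the others 114 to 116), Atg3 (65.7, the others 48.8 to 51.1) and Atg5 (46.2, the others 32.7 to 34.1). It was lowest for Atg2b (105, the others 116 to 119) and Atg4a (25.5, the others 30.5 to 30.7). The calls that changed without this library were given above. Changes with it as the only rested CD5hi library were given for some genes only.

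In Treg the separate libraries were replicate 1 for Atg4c (2.43 CPM) and replicate 2 for Becn1 (122). Treg replicate 3 stood apart for Atg16l2 (46.7), Bnip3 (7.27) and Pik3r4 (50.7), and Treg replicate 4 for Atg2b (104) and Tfe3 (47.8). Among the fresh libraries, CD5lo replicate 1 was high for Atg14 (25.05), CD5lo replicate 3 low for Pik3r4 (56.0) and CD5hi replicate 3 high for Gabarapl1 (2.48). In rested CD5lo cells replicate 3 was high for Wipi2 (111).

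The CD5 difference changed on resting for 1 gene of the 4 pathway lists beside the 39, Ndrg1, a hypoxia target. Ndrg1 was at 9.21 ± 0.940 CPM in fresh CD5lo and 29.1 ± 1.83 in fresh CD5hi cells, and at 39.1 ± 2.52 and 69.9 ± 4.39 after resting (mean ± SD, n = 4). The change of the difference was -0.82 ± 0.10 on the log2 scale (edgeR adjusted p = 2.1e-04).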

How the results depend on the processing

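The number of the 39 genes called stayed within 1.5 times for both comparisons of rested with fresh cells and both of Treg with naive cells under all alternatives run. Between CD5 groups the counts are small. When fresh, 1 gene was called as reported, 2 with only the compared groups and 3 with the replicate block within states. When rested, 1 was called as reported, 2 with other size factors, 2 with a filter of 1 CPM in 4 libraries, 3 with DESeq2, 5 with the replicate block, 0 with rested replicates 1 and 2 alone, and 1 to 4 with each library left out, the 4 without rested CD5hi replicate 3. Over all genes, 1524 calls between fresh CD5 groups became 2806 with the block, and 1092 between rested ones became 2372 with it, 495 with those groups alone and 639 with rested replicates 3 and 4 alone. For the change of the CD5 difference, 60 became 354 with the block, 130 with DESeq2 and 36 to 90 with each library left out. The block changed no call on the 39 genes in that change.

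Direction reversed with a call on only 2 genes, both in rested against fresh CD5hi cells with only libraries that carry Y-linked reads, where the rested group is 1 library assumed to vary like the others. There Becn1 was at -0.15 and Atg3 at 0.27, and the cause was not tested. In that setting 31 genes were called in CD5lo cells (23 higher, 8 lower), 29 in CD5hi cells (24 and 5), and 18 and 19 in Treg against CD5lo and CD5hi cells. Depth limits Wipi1, Optn and Atg4c, whose intervals are the widest.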

Other observations

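Markers of other lymphocytes, which the results above do not use, also differed between the groups in summed level. The 5 B cell markers summed to 3.33 to 5.11 CPM in fresh naive, 4.59 to 9.77 in rested naive and 23.0 to 25.0 CPM in Treg libraries. The 4 CD8 and NK cell markers summed to 29.1 to 35.2 CPM in fresh CD5lo and 8.05 to 8.99 CPM in fresh CD5hi libraries. After resting they summed to 18.7 to 22.3 CPM in CD5lo and 6.26 to 8.09 CPM in CD5hi libraries, and in Treg to 15.9 to 18.5 CPM. Their part in the results was not tested.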
